A study of Mus musculus with 24 samples.

Results

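The CC chemokines are small secreted proteins named for the pair of adjacent cysteines near their start, and 10 of their genes were followed here in mouse macrophages: Ccl2, Ccl3, Ccl4, Ccl5, Ccl6, Ccl7, Ccl9, Ccl17, Ccl22 and Ccl24. The set was chosen by gene name, as the family members around the type 2 chemokines Ccl17, Ccl22 and Ccl24. Earlier results of these data were known when it was chosen. Each name was matched to its identifier in a table of 56884 genes. All 10 were found and all 10 passed the filter on low counts, with 13679 genes tested in all. Ccl22 and Ccl24 passed through 5 of 6 groups. Ccl17 passed only through the libraries treated with IL-4 and IL-13 alone, in which it was highest, so that it was tested because of its level there. Its differences from that group are therefore given as values without a p, and the counts are also given without it.

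CC chemokines bind receptors on leukocytes and direct their migration. Macrophages are a main source of them, and the type of stimulus sets which ones are made. Ccl17 and Ccl22 attract cells that carry Ccr4, such as T helper 2 and regulatory T cells. Ccl24 attracts eosinophils through Ccr3. All 3 are textbook targets of IL-4 and IL-13, which act through the transcription factor STAT6. Ccl2 and Ccl7 attract monocytes through Ccr2, and Ccl3, Ccl4 and Ccl5 are inflammatory chemokines that attract monocytes and T cells. Ccl6 and Ccl9 are rodent ligands of Ccr1 that myeloid cells make in quantity.

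The cells were bone marrow–derived macrophages (BMDM) of 4 wild-type C57BL/6J female mice aged 9 weeks, numbered 1, 2, 4 and 5, grown from marrow with macrophage colony-stimulating factor. Each mouse gave 1 library in each of 6 groups, 24 in all. The naive group received no further cytokine. The 5 other groups received IL-4 and IL-13, each at 20 ng/mL, for 24 hours. In 4 of these an inhibitor was added 1 hour before the cytokines: tunicamycin at 5 µg/mL, which blocks protein N-glycosylation and stresses the endoplasmic reticulum, Sal003 at 10 µM, which inhibits dephosphorylation of the translation factor eIF2α, or oligomycin at 1 µM, which inhibits the mitochondrial ATP synthase and was given to 2 groups. In 1 of the oligomycin groups ISRIB, a small molecule that blunts the integrated stress response, was also present at 1 µM. The labels disagree on which, and the values measured were not used to choose between them. Oligomycin set A is the group whose titles name ISRIB and whose library names do not, and oligomycin set B is the group whose library names do and whose titles do not. The comparisons ask which chemokine genes follow the cytokines and which of them the inhibitors alter.

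Between 16238727 and 26725278 reads per library fell on genes. The 7 macrophage markers, among them Lyz2, Csf1r and Adgre1, were found in every group. Their summed level in CPM, the count scaled to library size, was 30582 to 36302 in naive BMDM, 11370 to 13771 after IL-4/IL-13 alone and 8721 to 17650 over the inhibitor groups. Neutrophil markers summed to 18.4 to 34.0 CPM after IL-4/IL-13 and to at most 0.286 CPM with tunicamycin, where Camp, Elane and Ly6g were at 0. The lymphocyte markers summed to at most 14.7 CPM in any library, the eosinophil, basophil and mast cell markers to at most 26.0 CPM and stromal cell markers to 6.32 to 149.7 CPM, and those that moved with the chemokines are given beside them. In bulk RNA, fewer cells that make a transcript and less of it per cell cannot be told apart.

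The 10 genes lie in 3 places of the GRCm39 genome. Ccl24 (ENSMUSG00000004814) lies alone at chr5:135598668-135601905 on the minus strand. Ccl22 (ENSMUSG00000031779) at chr8:95471226-95478327 and Ccl17 (ENSMUSG00000031780) at chr8:95534358-95538664 lie 56.0 kb apart on the plus strand, with Cx3cl1 between them. The other 7 lie on chromosome 11. Ccl2 and Ccl7 form a pair 8.3 kb apart, and Ccl5, Ccl9, Ccl6, Ccl3 and Ccl4 follow each other further along, with Ccl9 and Ccl6 5.5 kb apart and Ccl3 and Ccl4 13.2 kb apart. Exons of Ccl3 are overlapped over 35.6% of their bases by Gm53692 on the other strand, and 24.5% of the 50-base stretches of Ccl3 also occur there. The counts of Ccl3 are uncertain to that extent, since whether reads were counted by strand is not given in the sources used here.

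The sequences before the transcription start are shown for the Ccr4 ligands Ccl17 and Ccl22, which rose with the cytokines and fell with each inhibitor, for Ccl7, which rose with tunicamycin, with Sal003 and in set A, and for Ccl3, which rose with tunicamycin. Each runs 5′ to 3′ on the gene's own strand, from 250 bases before to 50 bases after the start of the Ensembl canonical transcript in GRCm39. Capitals mark matches to the motifs searched below, and a sequence without capitals holds none of them. Ccl17 is read from chr8:95536825-95537124 (+), Ccl22 from chr8:95471968-95472267 (+), Ccl7 from chr11:81936282-81936581 (+) and Ccl3 from chr11:83540142-83540441 (-).
Ccl17: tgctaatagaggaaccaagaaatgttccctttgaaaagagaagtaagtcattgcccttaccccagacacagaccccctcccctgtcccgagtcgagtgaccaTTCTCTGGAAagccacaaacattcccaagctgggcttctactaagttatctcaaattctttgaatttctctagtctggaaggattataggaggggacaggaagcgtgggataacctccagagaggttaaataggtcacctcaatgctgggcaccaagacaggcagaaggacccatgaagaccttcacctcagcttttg
Ccl22: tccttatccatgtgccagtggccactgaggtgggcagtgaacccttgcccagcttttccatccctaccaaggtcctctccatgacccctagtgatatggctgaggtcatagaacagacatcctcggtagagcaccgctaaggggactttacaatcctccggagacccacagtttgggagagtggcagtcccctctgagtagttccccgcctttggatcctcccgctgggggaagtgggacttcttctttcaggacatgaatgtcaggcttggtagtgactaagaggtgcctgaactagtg
Ccl7: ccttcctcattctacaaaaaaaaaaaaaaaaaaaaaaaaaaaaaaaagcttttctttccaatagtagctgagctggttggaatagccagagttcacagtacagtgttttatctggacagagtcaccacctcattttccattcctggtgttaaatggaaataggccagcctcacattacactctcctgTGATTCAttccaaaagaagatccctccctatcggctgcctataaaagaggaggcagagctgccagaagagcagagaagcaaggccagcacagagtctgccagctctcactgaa
Ccl3: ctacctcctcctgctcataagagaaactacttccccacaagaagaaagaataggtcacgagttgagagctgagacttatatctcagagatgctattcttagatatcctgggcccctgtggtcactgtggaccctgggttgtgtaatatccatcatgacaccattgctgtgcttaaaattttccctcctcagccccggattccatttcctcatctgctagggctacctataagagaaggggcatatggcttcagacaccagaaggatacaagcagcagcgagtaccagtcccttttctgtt

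The motifs were searched on both strands of the promoters. The STAT6 motif, TTC and GAA with any 4 bases between them, was in 6.81% of 21654 promoters of this length, the C/EBP-ATF response element TGATGNAA in 3.85%, the AP-1 motif TGANTCA in 7.16% and the NF-kB motif in 8.95%. Ccl17 held the STAT6 motif, as TTCTCTGGAA with its first base at position -148 from the start. The AP-1 motif was found in Ccl7 at position -63 and in Ccl9 at position -48. Ccl5 at position -89 and Ccl9 at position -30 held the NF-kB motif, and Ccl2 held the C/EBP-ATF element at position -98. None of these matches overlapped. No match was found in Ccl22, Ccl3, Ccl4 or Ccl6, which says only that these letters are not in these windows.

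IL-4/IL-13 raised 5 of the 10 genes, Ccl6, Ccl9, Ccl17, Ccl22 and Ccl24, and lowered Ccl3. The threshold for a call was 2.5-fold together with an adjusted p below 0.05. Of all genes tested, 5.39% were called higher and 6.08% lower in this comparison. Without the minimum fold the counts were 6 higher and 3 lower, where 30.1% and 30.4% of all genes passed. The median change of the 10 genes was 1.28 on the log2 scale, against -0.023 over all genes. Without Ccl17, 4 of 9 genes were called higher and 1 lower, with a median of 1.06.

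Ccl24, the eosinophil chemokine, rose by 5.36 ± 0.25 on the log2 scale (SE), which is 41.0-fold (edgeR, adjusted p = 2.14e-15). In naive BMDM of mice 1, 2, 4 and 5 it was at 0.537, 1.08, 0.536 and 0.795 CPM. After IL-4/IL-13 it was at 31.2, 27.9, 33.1 and 28.6 CPM. The lowest treated library lay far above the highest naive library.

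Ccl22 rose 9.48-fold, by 3.24 ± 0.17 on the log2 scale (edgeR, adjusted p = 3.08e-14). The naive libraries held 2.44, 2.27, 2.52 and 2.98 CPM in mice 1, 2, 4 and 5, and the IL-4/IL-13 libraries 24.6, 19.5, 29.6 and 23.6 CPM. All 4 mice moved the same way, and the groups did not overlap.

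Ccl17, the other ligand of Ccr4, was almost absent from naive BMDM, with 0, 0, 1 and 1 counts. It reached 33, 37, 41 and 41 counts after IL-4/IL-13, or 1.84, 1.87, 2.16 and 2.49 CPM. The summed counts of 152 against 2, scaled to library size, gave a ratio of 79.7, with an exact 95% counting interval of 21.7 to 664. The interval covers counting error only. Ccl17 thus remained a low transcript even where it was induced.

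Some markers of other cell types moved with these 3 genes. Of the 5 dendritic cell markers tested, of 7, 2 were called higher with IL-4/IL-13, as were 5.39% of all genes. The other 3 were not called. The 2 called higher were the integrin gene Itgax, at 19.5 CPM in naive BMDM and 2109 CPM after treatment, and the transcription factor gene Batf3, at 6.65 and 94.3 CPM (edgeR, adjusted p = 1.92e-21 and 2.7e-21). All 5 were called lower with Sal003, in set A and with tunicamycin, and 4 in set B. Of all genes, 5.04% were called lower with Sal003, 7.96% in set A, 14% with tunicamycin and 5.02% in set B. The summed level of the 7 was mostly that of Itgax. It was 29.4 to 33.4 CPM in naive BMDM, 2029 to 2380 CPM after IL-4/IL-13, 12.9 to 15.5 CPM with tunicamycin, 416 to 688 CPM with Sal003, 822 to 1147 CPM in oligomycin set B and 474 to 546 CPM in oligomycin set A. Xcr1 was at 0 and Cd209a had at most 2 counts in the IL-4/IL-13 libraries.

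Siglecf, on the list of eosinophil, basophil and mast cell markers, rose 11.7-fold, from 1.71 to 20.2 CPM (edgeR, adjusted p = 4.39e-15). It was lower with tunicamycin, at 0.315 CPM, and in set A, at 4.45 CPM (edgeR, adjusted p = 9.56e-18 and 2.81e-12), and stood at 8.85 CPM with Sal003 and 14.4 CPM in set B, where it was not called. The whole list summed to 2.67 to 4.24 CPM in naive BMDM and 19.3 to 26.0 CPM after IL-4/IL-13. Of its 2 genes tested, the other, Prg2, overlapped between those groups, at 0.965 CPM after treatment, and was called lower with each inhibitor. Pecam1, an endothelial gene on the stromal list, rose 2.96-fold to 31.9 CPM (edgeR, adjusted p = 4.31e-13), as 1 of 6 tested there, and was called lower with each inhibitor, at 1.94 to 6.76 CPM.

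Other markers fell as the 3 chemokines rose. Of the 7 macrophage markers 3 were called lower with IL-4/IL-13 and 0 higher: the Fc receptor gene Fcgr1 by 13.5-fold to 36.9 CPM, the lysozyme gene Lyz2 by 3.94-fold to 5981 CPM and Adgre1, which encodes F4/80, by 3.57-fold to 977 CPM (edgeR, adjusted p = 6.29e-14, 2.78e-15 and 6.24e-17). Of all genes, 6.08% were called lower and 5.39% higher with IL-4/IL-13. With the inhibitors Fcgr1 was called higher in each, at 230 to 344 CPM. Cd4, the 1 lymphocyte marker tested, fell 5.47-fold to 2.10 CPM (edgeR, adjusted p = 3.16e-11) and was not called with any inhibitor. The part of other cell types in the levels of Ccl17, Ccl22 and Ccl24 was not tested.

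Ccl9 and Ccl6, the abundant Ccr1 ligands, rose less in proportion and more in amount. Ccl9 went from 736 ± 73.1 to 2079 ± 55.4 CPM (SD, n = 4), or 2.82-fold (edgeR, adjusted p = 2.86e-16). Ccl6 went from 187 ± 25.2 to 588 ± 5.81 CPM (SD, n = 4), or 3.14-fold (edgeR, adjusted p = 4.75e-13). The 4 treated libraries of Ccl6 lay within 581 and 595 CPM, whereas the naive ones spread from 164 to 223 CPM.

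The inflammatory ligands were at lower levels after IL-4/IL-13. Ccl3 fell by 1.55 ± 0.13 on the log2 scale, from 25.7 ± 2.65 to 8.75 ± 0.797 CPM (SD, n = 4; edgeR, adjusted p = 1.27e-10). Gm53692, which overlaps it, went from 295 to 380 counts per library to 78 to 96. Ccl4 differed by -1.31 ± 0.23 and Ccl5 by -1.31 ± 0.26 on the log2 scale, with adjusted p-values of 2.91e-05 and 0.000115 by edgeR, and neither overlapped the naive libraries. At 2.48-fold and 2.47-fold they stopped just short of the fold threshold. Leaving out mouse 4 or mouse 5 carried both past it.

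Of the monocyte chemokines, Ccl7 was at 1.05 ± 0.301 CPM in naive BMDM and 2.20 ± 0.339 CPM after treatment (SD, n = 4), which at 2.08-fold was not called (edgeR, adjusted p = 0.0042). For Ccl2 the levels of 4.34 ± 0.816 and 5.35 ± 0.339 CPM (SD, n = 4) overlapped, with an adjusted p of 0.206 by edgeR.

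**Figure D1:**
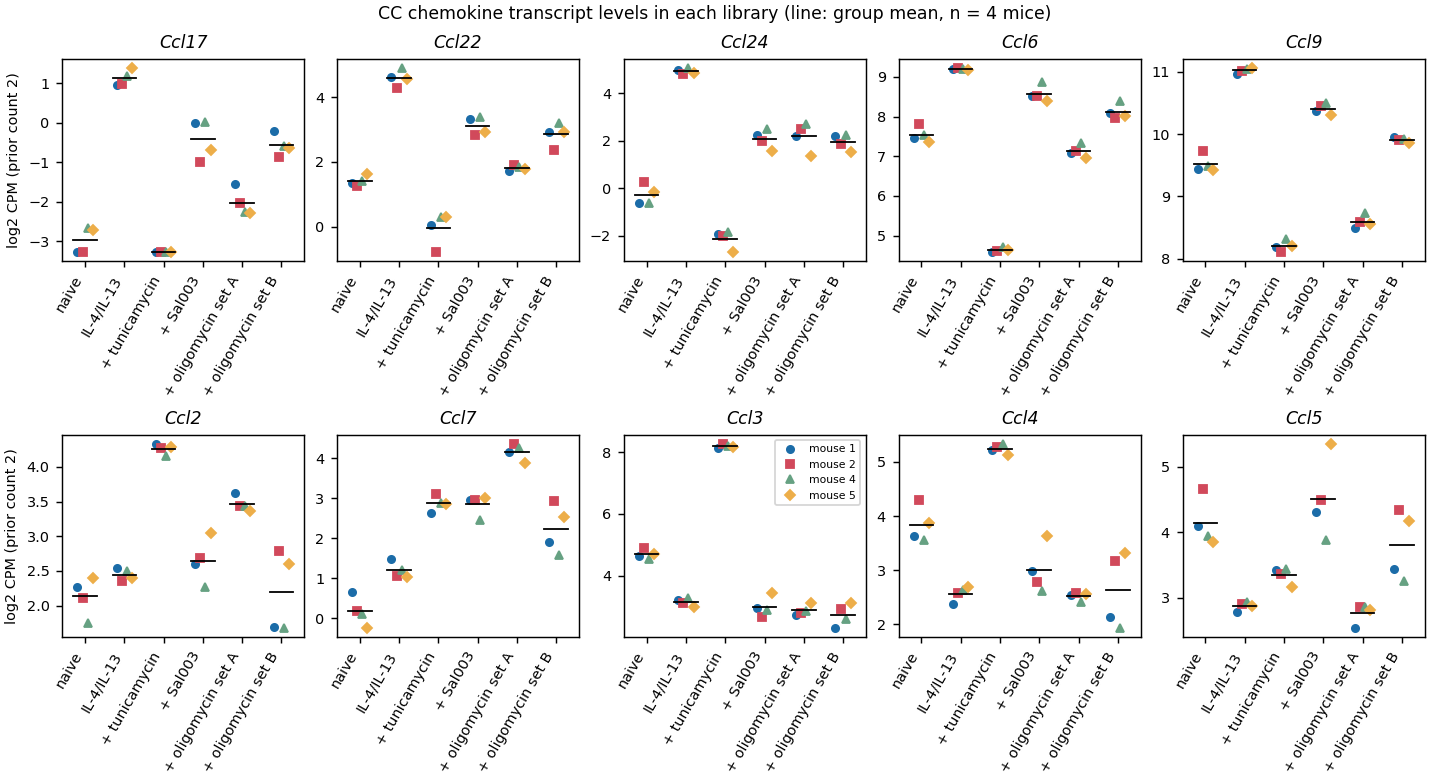
Level of each gene in log2 CPM (vertical axis, prior count of 2, scale differs by panel) in the 6 groups, with 1 point per mouse and a line at the group mean. Ccl17, Ccl22, Ccl24, Ccl6 and Ccl9 peak with IL-4/IL-13 alone, Ccl2, Ccl3 and Ccl4 with tunicamycin and Ccl7 with oligomycin set A. In oligomycin set B mice 2 and 5 lie above mice 1 and 4 for Ccl2, Ccl7, Ccl3, Ccl4 and Ccl5.

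Per length, the 10 transcripts together made up 2016 ± 124 TPM (the count scaled to exon length and to the library's total; SD, n = 4) in naive BMDM and 4844 ± 56.9 TPM after IL-4/IL-13. Ccl9 and Ccl6 held most of this in both groups. Ccl9 made up 56.6% ± 1.06 in naive BMDM and 63.0% ± 0.719 after IL-4/IL-13, and Ccl6 24.6% ± 0.922 and 30.5% ± 0.654 (SD, n = 4). The type 2 chemokines were small parts of the sum even when induced, with 2.01% for Ccl24, 0.938% for Ccl22 and 0.296% for Ccl17. Ccl3 and Ccl4, at 7.95% and 5.03% in naive BMDM, shrank to 1.06% and 0.803%.

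Tunicamycin changed this makeup. Against IL-4/IL-13 alone it raised 4 of the 10 genes, Ccl2, Ccl3, Ccl4 and Ccl7, and lowered 5, Ccl6, Ccl9, Ccl17, Ccl22 and Ccl24. Of all genes, 8.56% were called higher and 14% lower. The members' counts were the same without the minimum fold, where 38.7% and 37.6% of all genes passed. The 10 genes had a median log2 change of -1.17, against 0.0066 over all genes. Without Ccl17, 4 of 9 genes were called higher and 4 lower and the median was 0.48, so that its sign turned on that gene.

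Ccl3 (macrophage inflammatory protein 1α) stood at 280, 310, 298 and 286 CPM in mice 1, 2, 4 and 5 with tunicamycin, against 9.08, 8.52, 9.64 and 7.77 CPM without it. It rose 33.5-fold, by 5.06 ± 0.13 on the log2 scale (edgeR, adjusted p = 1.39e-21), and lay 11.4-fold above the naive level too (edgeR, adjusted p = 1.9e-19). Gm53692 held 392 to 498 counts in these libraries, against 5256 to 6510 for Ccl3. With 65.5% ± 1.18 of the summed TPM (SD, n = 4), Ccl3 took the place that Ccl9 held in the other 5 groups.

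Ccl4, its neighbour on chromosome 11, rose by 2.69 ± 0.22 on the log2 scale to 37.7 ± 2.30 CPM (SD, n = 4; edgeR, adjusted p = 5.82e-11). Ccl2 rose by 1.84 ± 0.18 to 19.1 ± 0.941 CPM (SD, n = 4; edgeR, adjusted p = 7.78e-10), and Ccl7 by 1.72 ± 0.23 to 7.27 ± 0.988 CPM (SD, n = 4; edgeR, adjusted p = 2.2e-07). In each of these genes all 4 mice were higher with tunicamycin and no libraries overlapped. Ccl5 was at 10.1 ± 0.873 CPM (SD, n = 4) with tunicamycin, 1.39-fold above IL-4/IL-13 alone, and though the libraries did not overlap it was not called (edgeR, adjusted p = 0.115).

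The genes that IL-4/IL-13 had raised all fell. No read of Ccl17 was found in any of the 4 tunicamycin libraries, which with 3 counts allowed in each is at least 13.4-fold lower than IL-4/IL-13 alone. Ccl24 held 3, 3, 3 and 1 counts against 560, 553, 629 and 472. The ratio of its summed counts was 235, with an exact 95% counting interval of 128 to 491 (edgeR, adjusted p = 6.54e-17). Ccl22 was at 0.924, 0.476, 1.13 and 1.12 CPM, and fell by 4.74 ± 0.21 on the log2 scale (edgeR, adjusted p = 1.08e-16).

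Ccl6 fell by 4.57 ± 0.12 on the log2 scale to 24.7 ± 0.873 CPM (SD, n = 4; edgeR, adjusted p = 3.74e-21), and Ccl9 by 2.81 ± 0.07 to 296 ± 18.5 CPM (SD, n = 4; edgeR, adjusted p = 6.75e-22). The 5 neutrophil markers tested, of 7, were all called lower in the same libraries, as they were in oligomycin set A, where they summed to 1.98 to 3.72 CPM, and with Sal003, where they summed to at most 6.85 CPM. In oligomycin set B, where both chemokines were lower without a call, 1 of the 5 was called lower. The sum there was 14.6 to 18.5 CPM. In naive BMDM, where both chemokines were lower than after IL-4/IL-13, the markers summed to 32.15 to 62.77 CPM. After IL-4/IL-13 they summed to 18.4 to 34.0 CPM, and 0 of the 5 were called between these groups. Against IL-4/IL-13 alone, 14% of all genes were called lower with tunicamycin, 7.96% in set A, 5.04% with Sal003 and 5.02% in set B. Neutrophils can make both chemokines, and their part in the changes was not tested. Of the 7 macrophage markers, 2 were called higher with tunicamycin, Adgre1 by 6.83-fold and Fcgr1 by 6.23-fold, and 3 lower, Csf1r by 4.54-fold, Mertk by 3.48-fold and Cd68 by 2.56-fold, the last 3 named after their values had been seen. Of all genes, 8.56% were called higher and 14% lower with tunicamycin. The 7 macrophage markers summed to 16073 to 17650 CPM, against 11370 to 13771 CPM with IL-4/IL-13 alone. In this sum Adgre1 was at 6678 CPM with tunicamycin and 977 CPM without it. Lyz2, which was not called, was at 8627 and 5981 CPM. The sum was thus higher although 3 of the 7 were called lower.

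The levels with tunicamycin lay below those of naive BMDM for several of these genes. Of the 10 genes, 4 were called higher than in naive BMDM, Ccl2, Ccl3, Ccl4 and Ccl7, and 3 lower, Ccl6, Ccl22 and Ccl24, with 7.5% of all genes called higher and 15.1% lower. With no minimum fold 4 were higher and 5 lower, against 37.1% and 40.5% of all genes. Ccl6 was 7.57-fold lower (edgeR, adjusted p = 1.33e-17), Ccl22 2.82-fold lower (edgeR, adjusted p = 1.26e-05) and Ccl24 5.66-fold lower by summed counts (interval 2.86 to 12.5). Ccl9 was 2.49-fold lower, just short of the fold threshold (edgeR, adjusted p = 1.33e-15). The calls of Ccl4, at 2.59-fold, and of Ccl22 were lost without mouse 4 and without mouse 2, respectively.

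**Figure D2:**
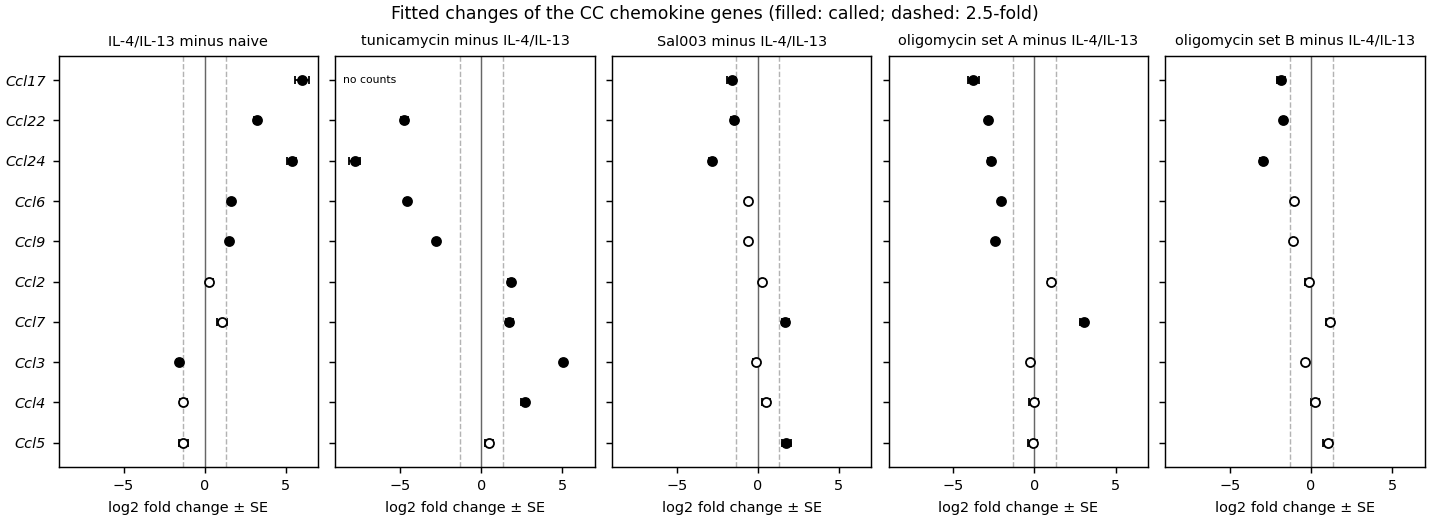
Fitted log2 fold change (horizontal axis) with its standard error for the 10 genes in 5 comparisons of 4 libraries against 4, with filled points for calls, open points for the rest and dashed lines at 2.5-fold. The type 2 chemokines lie on the right with IL-4/IL-13 and on the left with every inhibitor. Ccl17 has no point with tunicamycin because no read was counted. Its filled points elsewhere are not read as tests, since it passed the filter on low counts only through the IL-4/IL-13 group.

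Sal003 raised 2 of the 10 genes, Ccl5 and Ccl7, and lowered 3, the type 2 chemokines Ccl17, Ccl22 and Ccl24, with 2.68% of all genes called higher and 5.04% lower. Without the minimum fold Ccl6 and Ccl9 joined those lower, for 2 and 5 genes against 25.9% and 24.6% of all genes. The median log2 change of the 10 genes was -0.37, against 0.0042 over all genes. Without Ccl17, 2 of 9 were lower and the median was -0.14.

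Ccl24 fell by 2.84 ± 0.20 on the log2 scale, to 4.62, 3.89, 5.49 and 2.88 CPM in mice 1, 2, 4 and 5 (edgeR, adjusted p = 9.02e-12). Ccl22 fell by 1.49 ± 0.15 to 9.86, 6.99, 10.3 and 7.52 CPM (edgeR, adjusted p = 8.65e-09). Ccl17 was at 0.882, 0.395, 0.906 and 0.515 CPM, lower by 1.62 ± 0.26. All libraries of the 3 genes lay between those of naive BMDM and those of IL-4/IL-13 alone. Ccl6 and Ccl9 were 1.53-fold lower each, without overlap but under the fold threshold (edgeR, adjusted p = 1.33e-05 and 9.15e-09).

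Ccl5, which attracts T cells and monocytes, was at 19.8, 22.6, 14.7 and 40.8 CPM in mice 1, 2, 4 and 5 with Sal003, against 6.74, 7.41, 7.58 and 7.22 CPM without. It rose 3.38-fold, by 1.76 ± 0.26 on the log2 scale (edgeR, adjusted p = 2.85e-06). Mouse 5 held the highest value, and without it the rise was 1.39 on the log2 scale and still called. Ccl7 rose 3.25-fold, by 1.70 ± 0.23, to 7.68, 7.67, 5.38 and 7.88 CPM (edgeR, adjusted p = 8.67e-07). Ccl2, Ccl3 and Ccl4 overlapped the IL-4/IL-13 libraries, with adjusted p-values of 0.326, 0.469 and 0.0965 by edgeR.

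Oligomycin set A lowered 5 of the 10 genes, Ccl6, Ccl9, Ccl17, Ccl22 and Ccl24, and raised Ccl7. Of all genes, 4.79% were called higher and 7.96% lower. Taking the adjusted p alone, 2 were higher and 5 lower, against 34% and 32.2% of all genes. The median log2 change was -1.17 over the 10 genes and 0.0060 over all genes. Without Ccl17, 4 of 9 were lower and the median was -0.27.

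Ccl7 was at 17.7, 20.4, 19.1 and 14.5 CPM in mice 1, 2, 4 and 5, its highest level in any group. That is 8.14-fold above IL-4/IL-13 alone, or 3.02 ± 0.21 on the log2 scale (edgeR, adjusted p = 5.16e-12). Its neighbour Ccl2 stood at 10.9 ± 0.889 CPM (SD, n = 4), 2.04-fold higher without overlap and under the fold threshold (edgeR, adjusted p = 1.91e-05). Ccl3, Ccl4 and Ccl5 overlapped the IL-4/IL-13 libraries, with adjusted p-values of 0.106, 0.872 and 0.76 by edgeR.

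Ccl17 held 5, 3, 2 and 2 counts in set A and was lower by 3.77 ± 0.33 on the log2 scale. Ccl22 was at 3.17, 3.62, 3.46 and 3.30 CPM and fell by 2.84 ± 0.17 (edgeR, adjusted p = 1.34e-13). Ccl24 was at 4.45, 5.46, 6.44 and 2.45 CPM and fell by 2.68 ± 0.19 (edgeR, adjusted p = 5.74e-12). Ccl6 fell by 2.06 ± 0.10 to 141 ± 15.4 CPM (SD, n = 4; edgeR, adjusted p = 6.14e-15) and Ccl9 by 2.42 ± 0.07 to 388 ± 28.9 CPM (SD, n = 4; edgeR, adjusted p = 5.23e-20), which are 1.33-fold and 1.90-fold below their naive levels.

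Oligomycin set B lowered only the 3 type 2 chemokines past the threshold and raised none of the 10 genes, with 2.94% of all genes called higher and 5.02% lower. By the adjusted p alone 2 were higher and 6 lower, against 27.9% and 26.4% of all genes. The medians were -0.72 over the 10 genes and 0.0026 over all genes. Without Ccl17, 2 of 9 were lower and the median was -0.37. Ccl24 fell by 2.98 ± 0.20 on the log2 scale, to 4.55, 3.53, 4.64 and 2.79 CPM in mice 1, 2, 4 and 5 (edgeR, adjusted p = 3.49e-12). Ccl22 fell by 1.73 ± 0.15, to 7.53, 5.07, 9.16 and 7.55 CPM (edgeR, adjusted p = 6.45e-10). Ccl17 was at 0.758, 0.441, 0.565 and 0.542 CPM, lower by 1.84 ± 0.26. Ccl6 and Ccl9 were 2.11-fold and 2.16-fold lower, under the fold threshold (edgeR, adjusted p = 1.65e-09 and 2.12e-13).

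The inflammatory and monocyte ligands differed from mouse to mouse in set B. In mice 1, 2, 4 and 5, Ccl5 was at 10.8, 20.3, 9.44 and 17.8 CPM, Ccl7 at 3.63, 7.49, 2.88 and 5.69 CPM, Ccl4 at 4.28, 8.87, 3.73 and 9.83 CPM and Ccl2 at 3.14, 6.83, 3.11 and 5.96 CPM. Mice 2 and 5 were higher than mice 1 and 4 in all 4 of these genes. The same held for Ccl3, at 4.87, 7.38, 5.88 and 8.60 CPM in mice 1, 2, 4 and 5. In set A the ranges were 10.1 to 12.2 CPM for Ccl2, 5.18 to 5.88 CPM for Ccl4, 5.73 to 7.15 CPM for Ccl5 and 14.5 to 20.4 CPM for Ccl7, of which that of Ccl7 was wider in CPM than in set B. Against IL-4/IL-13 alone, Ccl7 was 2.25-fold and Ccl5 2.03-fold higher in all 4 mice (edgeR, adjusted p = 0.000167 and 0.00201), neither past the fold threshold. Without mouse 1 or without mouse 4, Ccl7 passed it, at 1.38 and 1.35 on the log2 scale.

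Between the oligomycin groups 1 gene was called higher in set A, Ccl7, and 1 lower, Ccl17, with 1.14% of all genes called higher and 1.48% lower. On the adjusted p alone the counts were 2 and 5, against 19.9% and 21.3% of all genes. Ccl7 was 3.61-fold higher in set A (edgeR, adjusted p = 1.89e-08) and Ccl17 3.79-fold lower (edgeR, adjusted p = 0.000429). Ccl17 held 2 to 14 counts per library here and did not pass the filter on low counts when the 8 libraries were fitted alone. Ccl9, Ccl22, Ccl5 and Ccl6 were 2.48, 2.16, 2.18 and 1.98-fold lower in set A and Ccl2 2.27-fold higher. Each was without overlap and under the threshold. How many of all genes lacked overlap was not counted, here or in the other comparisons. The levels of Ccl24 overlapped, with 4.70 ± 1.71 CPM in set A against 3.87 ± 0.883 CPM in set B (SD, n = 4; edgeR, adjusted p = 0.307).

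How much of the rise each inhibitor took away was set out within mice, as the drop from IL-4/IL-13 alone divided by the rise from naive, both in log2 CPM. At 100% the naive level is reached, and above it the level lies below naive. Ccl22 lost 146% ± 15.3 of its rise with tunicamycin, 87.6% ± 6.80 in set A, 54.6% ± 6.46 in set B and 46.7% ± 6.84 with Sal003 (SD, n = 4). Ccl17 is left out of this measure, since its naive libraries held 0 or 1 count and the prior count would set the size of its rise.

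Ccl24 lost 136% ± 16.1 with tunicamycin, a value that rests on 1 to 3 counts in a library, and 52.9% ± 12.1, 57.3% ± 9.42 and 55.2% ± 9.81 in set A, set B and with Sal003 (SD, n = 4), and these last 3 overlapped. Direct tests between those groups gave adjusted p-values of 0.307 for set A against set B, 0.58 for set A against Sal003 and 0.739 for set B against Sal003 (edgeR). Ccl22, by contrast, was called lower in set A than with Sal003, by 1.35 ± 0.18 on the log2 scale (edgeR, adjusted p = 5.26e-07), a call lost without mouse 1 or without mouse 4.

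Ccl6 and Ccl9, whose rise was smaller, lost 278% ± 32.5 and 189% ± 23.7 of it with tunicamycin and 126% ± 15.1 and 163% ± 17.2 in set A (SD, n = 4). In set B the parts were 66.6% ± 16.7 and 74.4% ± 7.91, and with Sal003 37.9% ± 13.0 and 41.1% ± 4.93. The order of the 4 inhibitor groups by mean was thus the same for Ccl6, Ccl9 and Ccl22, with tunicamycin first and Sal003 last, and Ccl24 did not share it. For Ccl22, set B and Sal003 overlapped and stood 1.18-fold apart (edgeR, adjusted p = 0.341), so that step of its order is not resolved. All these parts share the naive and IL-4/IL-13 libraries.

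**Figure D3:**
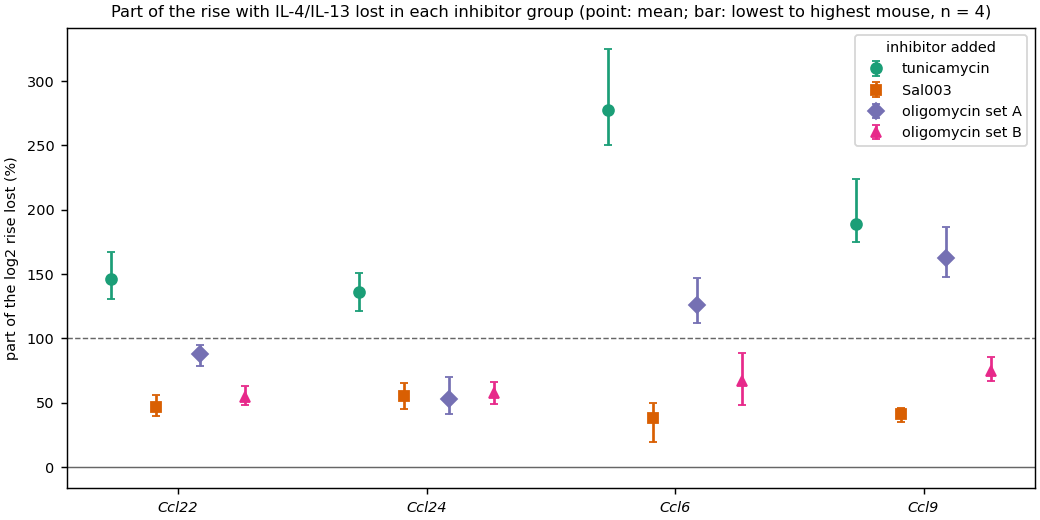
Part of the log2 rise with IL-4/IL-13 that was lost in each inhibitor group (vertical axis, percent), as the mean of 4 mice with a bar from the lowest to the highest mouse, for 4 of the 5 genes that rose. The dashed line at 100% is the naive level; all tunicamycin means lie above it, from 136% for Ccl24 to 278% for Ccl6, and the 3 other groups lie close together for Ccl24.

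Against naive BMDM, 4 of the 10 genes were called higher and 1 lower with Sal003 (3.21% and 7.49% of all genes), 4 higher and 3 lower in set A (4.99% and 9.53%) and 4 higher and 1 lower in set B (3.58% and 7.37%). Without the minimum fold the counts were 7 and 2 with Sal003 (31.7% and 30.8% of all genes), 4 and 5 in set A (35.5% in each direction) and 6 and 2 in set B (32.6% and 31.2%). These comparisons share the naive libraries. Ccl7, Ccl17 and Ccl24 were among the genes called higher in all 3, with Ccl7 6.77, 16.9 and 4.69-fold above naive. Ccl22 was called higher with Sal003 and in set B, at 3.38-fold and 2.86-fold, and in set A stood at 1.32-fold (edgeR, adjusted p = 0.0811). Ccl2 completed the count in set A at 2.51-fold, a call lost without mouse 1, without mouse 2 or without mouse 4. The call of Ccl17 in set A rested on 12 against 2 counts, a ratio of 5.66 with an interval of 1.26 to 52.1, and was lost without mouse 1. Ccl3 was called lower in all 3, and Ccl4 and Ccl5 in set A, both lost without mouse 2.

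Between inhibitors, tunicamycin had 3 of the 10 genes called higher and 5 lower than Sal003 (7.8% and 11.3% of all genes), 2 higher and 4 lower than set A (5.64% and 8.6%), and 3 higher and 5 lower than set B (7.19% and 11.2%). Without the minimum fold the counts were 3 and 6 (35.9% and 36%), 3 and 6 (31.4% and 32.1%) and 4 and 5 (35.4% and 35.7%). The comparisons share the tunicamycin libraries. Ccl3 was 36.7, 40.5 and 43.2-fold higher with tunicamycin and Ccl4 4.55, 6.67 and 5.52-fold higher. Ccl17 was called lower than in set A on 0 against 12 counts in all, where 3 counts in each library would leave no fold. Ccl7 was at 7.27 CPM with tunicamycin and 7.15 CPM with Sal003 (edgeR, adjusted p = 0.922), and 2.46-fold lower than in set A (edgeR, adjusted p = 8.86e-07). Set A had 1 gene higher and 5 lower than Sal003 (2.27% and 2.05% of all genes; 2 and 5 without the minimum fold, against 25.1% and 26.4%), of which Ccl9, lower by 3.50-fold, had the smallest adjusted p, 5.06e-17 by edgeR. The gene higher in set A was Ccl7, a call lost without mouse 2 or without mouse 4.

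Set B and Sal003 had 0 of the 10 genes called apart in either direction, against 0.314% and 0.183% of all genes. DESeq2 at the same threshold also called 0. At an unadjusted p under 0.05 and with no minimum fold, edgeR placed 4 of the 10 genes apart. No share of all genes is given for that rule, so this count cannot be set against them. With an adjusted p under 0.05 but a smaller fold, Ccl5, Ccl6 and Ccl9 were lower in set B, by 1.67, 1.38 and 1.41-fold, where 9.74% of all genes were higher and 8.77% lower.

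**Figure D4:**
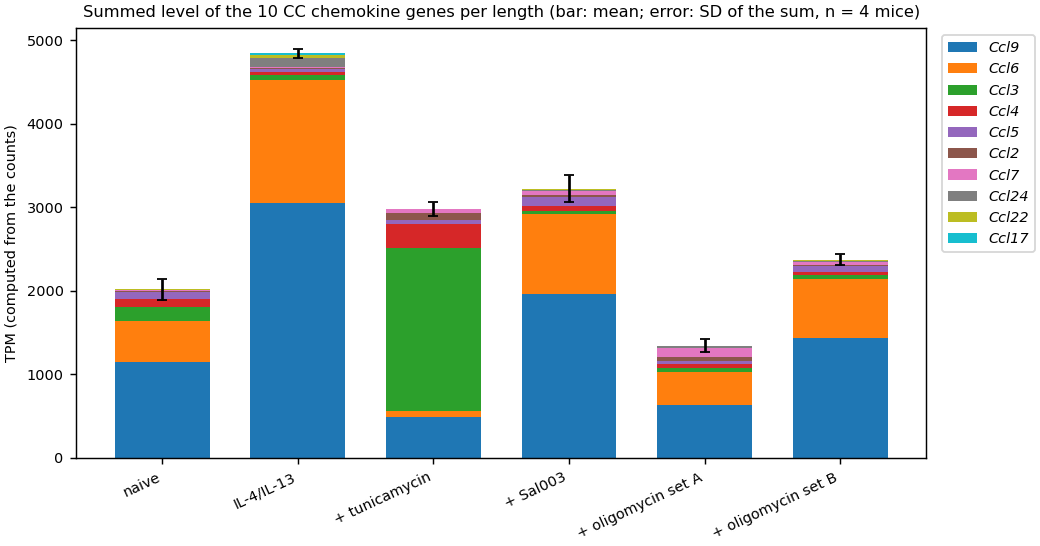
Summed level of the 10 genes in TPM computed from the counts (vertical axis), split by gene, as means of 4 libraries per group with the SD of the sum. IL-4/IL-13 alone has the tallest bar, at 4844 TPM, and tunicamycin is the only group in which Ccl3 fills most of the bar.

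The sum of the 10 transcripts was lowest in oligomycin set A, at 1341 ± 78.0 TPM, followed by 2372 ± 66.8 TPM in oligomycin set B, 2984 ± 82.4 TPM with tunicamycin and 3223 ± 166 TPM with Sal003 (SD, n = 4). In set A, Ccl7 made up 8.45% and Ccl2 3.68% of it, against 0.257% and 0.444% with IL-4/IL-13 alone. Ccl9 and Ccl6 stayed the leading pair with Sal003, at 60.9% and 29.5%, and in set B, at 60.4% and 29.9%.

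The patterns of the members were compared over the 6 group means of log2 CPM, each centred on its own mean, by the root mean square of the difference. Over 6 groups that share most of their treatment this likeness is a description. Ccl17 had 0 or 1 count in each naive library and 0 with tunicamycin, so the prior count sets its level there. Its distances rest in part on that setting. Among the 10 genes, Ccl17 and Ccl22 were the closest pair at 0.373, followed by Ccl6 and Ccl22 at 0.515. Ccl24 was nearer to Ccl22, at 0.932, than to any other member. Ccl3 and Ccl24 lay farthest apart at 3.97.

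Over 10598 genes searched, the nearest to Ccl17 were Batf3, also on the dendritic cell marker list, at 0.226, Ppargc1b at 0.242 and Ccl22 at 0.373. The prior count sets part of these distances of Ccl17 too. The nearest to Ccl22 were Ppargc1b at 0.155, Ddx4 at 0.179 and Kazald1 at 0.243. Ccl24 had no neighbour as close, with Fn1 at 0.474, St8sia1 at 0.516 and F7 at 0.528.

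Of 11 other CC ligand genes, 5 had enough counts to be tested. With IL-4/IL-13, 0 of them were called higher and 1 lower, against 5.39% and 6.08% of all genes. That gene was Ccl12, at 12 to 23 counts in naive BMDM and 0 to 3 after treatment. Sal003 raised 2 of the 5, against 2.68% of all genes. Both oligomycin groups also raised 2 each, where the shares were 2.94% (set B) and 4.79% (set A). Tunicamycin lowered 1 of the 5, Ccl8, against 14% of all genes. Ccl11, which like Ccl24 is an eotaxin that binds Ccr3, had no count in any library. These and the receptors below, other than Ccr1, were named after their values had been seen.

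Of 15 CC receptor genes, 8 were tested. IL-4/IL-13 raised 1 and lowered 1, against 5.39% and 6.08% of all genes. Ccr1, which binds Ccl3, Ccl5, Ccl6, Ccl7 and Ccl9, rose from 3.18 ± 0.423 to 11.4 ± 1.53 CPM (SD, n = 4), or 3.57-fold (edgeR, adjusted p = 8.38e-13), and fell 3.15-fold with tunicamycin (edgeR, adjusted p = 1.58e-12). With the inhibitors no receptor was called higher, and 2 of 8 were lower with Sal003, 4 in each oligomycin group and 6 with tunicamycin. Of all genes, 2.68% to 8.56% were called higher, so that none of 8 higher lies near that share. Called lower were 5.04% of all genes with Sal003, 7.96% in set A, 5.02% in set B and 14% with tunicamycin. Ccr2, the receptor of Ccl2 and Ccl7, was among them in each, at 99.6 CPM with IL-4/IL-13 alone, 3.50 CPM in oligomycin set A, 7.71 CPM with tunicamycin and 16.9 CPM both with Sal003 and in set B. Ccr4, the receptor of Ccl17 and Ccl22, had no count in any library.

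Of 17 CXC, CX3C and XC chemokine genes, 11 were tested. IL-4/IL-13 lowered 5 and raised 0 of them, against 6.08% and 5.39% of all genes, with a median log2 change of -1.29. Cxcl10, an interferon-inducible T cell attractant, fell 52.5-fold from 42.7 ± 3.90 to 0.820 ± 0.417 CPM (SD, n = 4; edgeR, adjusted p = 5.95e-13). Of the neutrophil attractants, Cxcl2 fell 3.49-fold and Cxcl1, whose groups overlapped, by 1.43 on the log2 scale (edgeR, adjusted p = 9.1e-05 and 0.0048). Tunicamycin raised 6 of the 11 and lowered 3, against 8.56% and 14% of all genes. Cxcl2 rose 34.4-fold to 114 ± 10.2 CPM (SD, n = 4; edgeR, adjusted p = 1.12e-13), Cxcl10 22.8-fold (edgeR, adjusted p = 5.63e-11) and Cxcl1 3.21-fold (edgeR, adjusted p = 0.000774). Sal003 raised 0 and lowered 2 (2.68% and 5.04% of all genes), set A raised 2 and lowered 2 (4.79% and 7.96%), and set B raised 1 and lowered 3 (2.94% and 5.02%). Cx3cl1, which lies between Ccl22 and Ccl17, was among those lowered by Sal003 and in both oligomycin groups, at 3.99, 4.49 and 3.43-fold (edgeR, adjusted p = 1.17e-06, 1.66e-07 and 3.03e-06). With IL-4/IL-13 alone it held 32 to 40 counts per library, against 74 to 86 in naive BMDM, and was not called. Its pattern thus did not follow the rise of its neighbours. It too was named after its values had been seen.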

How the data were processed

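RNA of BMDM from 4 mice in 6 groups was sequenced from poly(A)-selected libraries as single reads of 150 bases. Per the labels and the study's methods, the authors trimmed reads (cutadapt 1.8), aligned them to GRCm39 (STAR 2.7) and deposited raw gene counts (HTSeq 0.9.1). A table of estimated abundances (RSEM 1.2.31) was not used, since its header and columns differ in number. The 5 rows that name no gene held 12.7% to 15.2% of the counts and were left out.

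Counts of all 24 libraries were fitted in 1 model with edgeR 4.0.16 (R 4.3.3; TMM, filterByExpr, quasi-likelihood test), and p-values were adjusted by Benjamini-Hochberg over 13679 genes. Calls needed an adjusted p below 0.05 and 2.5-fold. CPM used TMM library sizes, log2 CPM a prior count of 2, and TPM the union of exons in GENCODE vM39. Counting intervals (Clopper-Pearson, 95%) and bounds from 3 counts in a library cover counting error only.

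Library numbers name the mouse. Deviations from group means correlated within a mouse at a median of 0.236 (over 0.1 in 56 of 60 pairs), against -0.054 between mice. Replicates are separate mice, and no pair of libraries agreed within counting noise. The members and lists were chosen with earlier results of these data known. Genes of other lists were named where called after IL-4/IL-13 with a mean of at least 50 counts over both groups, at most 3 per list by size of change. Camp, Elane, Ly6g, Prg2, Xcr1 and Cd209a were named outside this rule, and others outside it are marked in the text. The promoter of 1 member is not reported here. Alternatives were other scalings, filters, fold thresholds, DESeq2 1.42.0, a mouse term, a fit of the compared groups alone and leaving out each mouse.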

Additional observations from a re-analysis of the deposited data

Results flagged for a closer look

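In 2 of 59 groups of 4 libraries, 1 library lay farther from the other 3 than Dixon's 95% critical value allows, where chance gives about 1 in 20. In oligomycin set A, Ccl5 was at 5.73 CPM in mouse 1, below the other 3 mice at 6.95 to 7.15 CPM. With Sal003, Ccl7 was at 5.38 CPM in mouse 4, below the other 3 at 7.67 to 7.88 CPM. Without mouse 1, Ccl5 in set A stayed uncalled against IL-4/IL-13 alone, and without mouse 4, Ccl7 with Sal003 stayed called.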

How the results depend on the processing

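The mouse, as a replicate block, changed no call: with the pairing modelled, 5 genes were higher and 1 lower after IL-4/IL-13, and Ccl24 rose by 5.36 on the log2 scale. Of the 150 changes of single genes, 150 kept direction and call with the block and with no filter on low counts. With a prior count of 0.5 it was 149, with DESeq2 147, with library totals as scaling 146 and with upper-quartile scaling 144. Leaving out mouse 1, 2, 4 or 5 kept 144, 141, 137 and 143. Fitting only the groups compared kept 140, with 0 reversed, stronger or weaker. Requiring at least 10 counts in every library, where Ccl17 and Ccl24 were not tested, kept 115.

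The counts of called genes that moved by over 1.5 times are given by setting. Shares of all genes are given above for the main threshold and for the adjusted p alone. The other settings, 2-fold among them, have no such share here, so their counts cannot be set against all genes. With at least 10 counts required in every library, Ccl17 and Ccl24 were not tested: after IL-4/IL-13 3 rose, tunicamycin lowered 3, Sal003 1, set A 3 and set B 1, and set A was lower than set B in 0. Against naive, 1 was higher in set A and 2 each in set B and with Sal003. Tunicamycin was lower than Sal003 in 3, than set A in 2 and than set B in 3, and set A was higher than Sal003 in 0. At 2-fold, 3 fell after IL-4/IL-13, set A raised 2, set B raised 2 and lowered 5, set A against set B gave 2 higher and 4 lower, and set B against naive 2 lower. By adjusted p alone, 3 fell after IL-4/IL-13, Sal003 lowered 5, set A raised 2, set B raised 2 and lowered 6, and set A against set B gave 2 higher and 5 lower. Against naive, that rule gave 7 higher and 2 lower with Sal003, 5 lower with tunicamycin and in set A, and 2 lower in set B. Against Sal003 it gave 2 higher in set A and 3 lower in set B. Upper-quartile scaling gave 3 lower after IL-4/IL-13, and library totals 3 lower in set A than Sal003. DESeq2 gave 2 lower in set A than set B and 0 higher in set A than Sal003, a prior count of 0.5 also 0 in the latter, and fitting only the groups compared 0 lower in set A than set B.

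Leaving out 1 mouse at a time gave 1 to 3 genes lower after IL-4/IL-13 (3 without mouse 4 or 5), and 0 to 1 raised by set B (1 without mouse 1 or 4). Set A against set B gave 1 to 2 higher (2 without mouse 2 or 5) and 1 to 2 lower (2 without mouse 4). Against naive, set A gave 2 to 4 higher (2 without mouse 1) and 1 to 3 lower (1 without mouse 2), and set B 1 to 2 lower (2 without mouse 5). Set A against Sal003 gave 0 to 1 higher (0 without mouse 2 or 4).

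Log2 changes that reversed sign were all uncalled. Leaving out 1 mouse, they ranged from -0.12 to 0.00964 for Ccl4 in set A, from -0.39 to 0.0164 for Ccl2 and from -0.0265 to 0.43 for Ccl4 in set B, all against IL-4/IL-13. Against naive, Ccl5 with Sal003 ranged from -0.000816 to 0.69 and Ccl2 in set B from -0.0728 to 0.33. Ccl7, tunicamycin against Sal003, ranged from -0.0905 to 0.17 and was -0.00221 with the filter at 10 counts. Ccl3, set A against Sal003, was 0.000307 with library totals. Library totals shifted the median of all genes by 0.117 in set A against set B, 0.135 and 0.113 in tunicamycin against Sal003 and set B, and 0.139 in set A against Sal003. Apart from the genes that a filter left untested, the cause of these changes was not tested. Depth limits Ccl17, whose counts never passed 41 in a library.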
